A study of Mus musculus with 14 samples.

Results

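The genes described here encode the proteasome, its activators, its inhibitor and the chaperones that assemble it. Members were all probes of the deposited table whose single gene symbol in the platform annotation begins with Psma, Psmb, Psmc, Psmd, Psme, Psmf or Psmg followed by a digit, with Psmc3ip left out. This gave 50 probes for 49 genes, of 21582 probes in the table and 15094 genes named by its annotation. Psmb8 had 2 probes and every other gene had 1. The rule also takes in Psme3ip1, whose product binds the activator Psme3 and is not a subunit, so it is kept in a class of its own. The probe annotated as Psme2b, a copy of the activator gene Psme2, may also detect Psme2 itself, which has no probe of its own among the members, and its reading is uncertain for that reason.

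RNA of C57Bl6 mice was hybridised to 14 two-colour arrays. The series title names fetuses as its source, while the sample titles name the pregnant females. In the alcohol-fed group (n = 7), pregnant mice were exposed to ethanol at about 180 to 200 mg/dl over gestational days 15 to 18, a span the protocol counts as 4 days and the titles as 5. In the pair-fed group (n = 7), mothers received maltose dextrin over the same days, and mothers of both groups fed freely until day 14. Every array carried its sample in Cy5 beside a Cy3 pool of total RNA from 7 mice fed ad libitum, which the labels also call a weight-matched control. Fetuses exposed to ethanol were taken by caesarean section on gestational day 19. The labels name no tissue, sex or litter, so p-values reflect only how far these samples spread, and that spread may be technical. In RNA that is not from a single cell type, fewer cells of a type and less RNA per cell cannot be told apart.

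The proteasome is the barrel-shaped protease that degrades ubiquitin-tagged proteins in every cell. Its core is a stack of outer alpha rings, which gate the entrance, and inner beta rings, of which Psmb5, Psmb6 and Psmb7 carry the proteolytic sites. Interferon-inducible Psmb8, Psmb9 and Psmb10 can replace these sites in immune cells, and Psmb11 does so in the thymus. A regulatory particle sits on the core: its base holds the Psmc ATPases that unfold substrates, and its lid holds the deubiquitinase Psmd14. Psme genes encode other caps that open the core, Psmf1 an inhibitor, Psmg genes the chaperones of core assembly, and Psmd5, Psmd9 and Psmd10 chaperones of base assembly.

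Values are log2 ratios of sample to pool after each array was centred on its own median, which with placeholders left out lay between -0.377 and 0.615 on alcohol-fed arrays and between -0.62 and 0.68 on pair-fed arrays. A value of 0 therefore means the same ratio as the middle probe of that array, and all directions below are relative to it. Sample over pool is the likely direction, from the channel order in the labels and the design text, but it is not stated. If the ratios run the other way, every higher and lower below exchanges. The tests treat the pool as 1 control sample and take no account of its own variation, and no array had its dyes reversed. Placeholders, values of exactly 0 or at the table's ceiling of 16.61, made up 2.57% to 14.6% of an array and were treated as missing. They were most frequent on pair-fed arrays 6 and 7. Among member probes 10 of 350 values were missing in the alcohol-fed group and 11 of 350 in the pair-fed group, and all 50 probes had enough values to be tested. Two-sided limma tests were fitted over the 20876 probes measured on 4 or more arrays per group, and a probe was called at a Benjamini-Hochberg adjusted p under 0.05 over that whole table.

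Most proteasome probes stood above the array median in both groups, by small amounts. The mean log2 ratio was above 0 for 35 of 50 member probes in the alcohol-fed group (70%) and for 38 of 50 in the pair-fed group (76%). Over all 20876 probes tested the shares were 50.2% and 48.6%. The median member log2 ratio was 0.46 in the alcohol-fed group and 0.47 in the pair-fed group, where the median over all probes tested was 0.007 and -0.03. Across single arrays the member median ran from -0.04 (alcohol-fed array 2) to 0.84 (alcohol-fed array 1) and from 0.14 (pair-fed array 2) to 0.99 (pair-fed array 7). The groups overlapped over most of this range.

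Probes measured on every array had higher ratios throughout the table, and this accompanies the members' level. Of the 50 member probes 40 had a value on all 14 arrays, as had 14666 probes of the table. The 40 had a median of 0.52 in the alcohol-fed and 0.49 in the pair-fed group, against 0.23 and 0.16 over the 14666. Of the 10 member probes that lacked a value somewhere, 1 had a mean above 0 in the alcohol-fed group and 3 in the pair-fed group. For all such probes tested, 6210 in number, the shares above 0 were 25.4% and 27.0%. On single arrays the median of all members lay above that of the complete probes on 5 of 7 alcohol-fed and 6 of 7 pair-fed arrays. The part that missing values have in these levels was not tested.

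Few members passed the test against the pool, and most that did differed by less than 4-fold. In the alcohol-fed group limma called 5 of 50 probes higher (10%) and 3 lower (6%), beside 8.02% higher and 15.5% lower, 23.5% in all, among all probes tested. In the pair-fed group it called 7 higher (14%) and 2 lower (4%), beside 7.86% and 13.5%, 21.3% in all. Against all probes tested, the higher share is near the background in the alcohol-fed group and above it in the pair-fed group. The lower shares are below it in both groups. Probes of the table with a value on every array were called higher and lower at 10.7% each in the alcohol-fed group. In the pair-fed group both shares were 10.6%. The 40 such members had 12.5% higher and 2.5% lower in the alcohol-fed and 17.5% and 2.5% in the pair-fed group. The part of missing values in these shares was not tested. The pair-fed count changes when single arrays are left out. In that group 3 probes were called higher without pair-fed array 1, 4, 5 or 7. Without arrays 6 and 7 together, a setting chosen after seeing the data, 2 were. The pair-fed calls of Psmc3, Psmb4, Psma6, Psmd10 and Psmd14 lay near the threshold (limma adjusted p 0.0292 to 0.0408). The alcohol-fed count fell to 3 without alcohol-fed array 3, 4 or 7. With quantile normalization 9 probes were higher and 3 lower in the alcohol-fed group. Both groups were set against the same pool, so their ratios share its value.

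**Figure D1:**
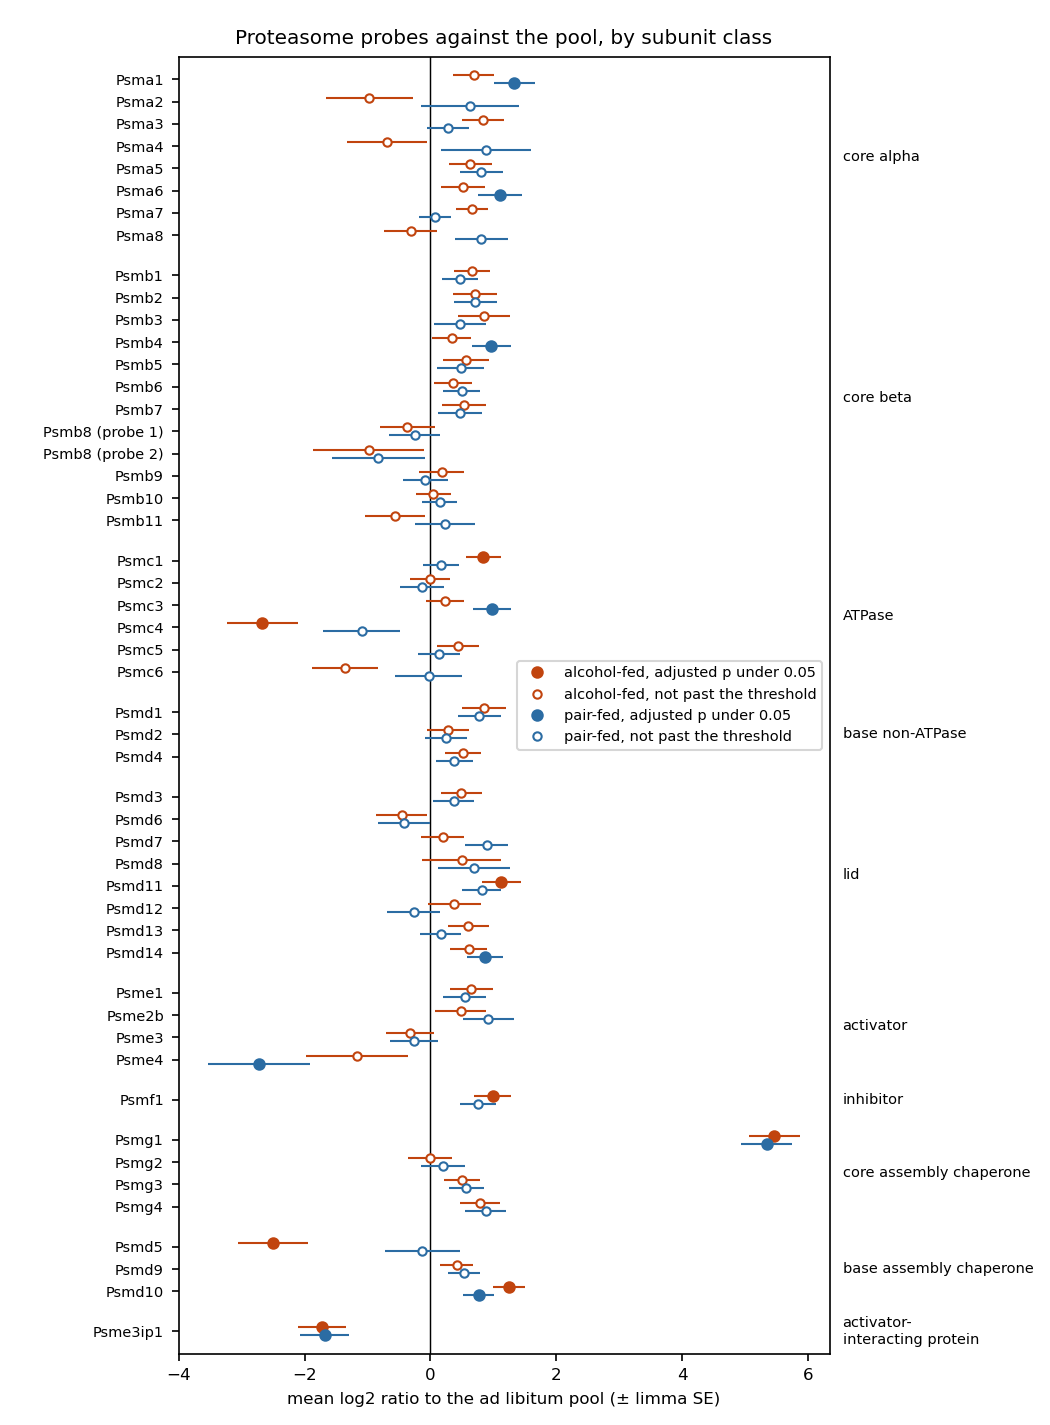
Mean log2 ratio to the ad libitum pool for each of the 50 proteasome probes, with limma standard errors, grouped by subunit class, alcohol-fed above pair-fed. Filled points passed the limma test (8 in the alcohol-fed and 9 in the pair-fed group), and Psmg1 stands alone at the right near 5.4 in both.

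The core alpha genes build the outer rings. None of the 8 probes was called in the alcohol-fed group, beside 23.5% of all probes tested. In the pair-fed group 2 of 8 were called higher (25%), beside 7.86%. Counts in classes this small are descriptions and do not set a class apart from the whole table. Class medians were 0.58 in the alcohol-fed and 0.81 in the pair-fed group. Psma1 ranged from -0.54 to 2.00 (median 0.57) on alcohol-fed arrays and from 0.365 to 2.57 (median 1.19) on pair-fed arrays. Its mean log2 ratio was 0.69 ± 0.33 (SE, n = 7) in the alcohol-fed group, which did not pass (limma adjusted p 0.130), and 1.33 ± 0.33 in the pair-fed group, which rose 2.52-fold (limma adjusted p 0.00847). All 7 pair-fed arrays were above 0, and the groups overlapped. Without pair-fed arrays 6 and 7, the arrays with the highest Psma1 values, the pair-fed mean was 0.86 and was no longer called (limma adjusted p 0.0887).

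Psma6 ranged from -0.31 to 2.33 (median 0.28) on alcohol-fed arrays and from -0.36 to 2.19 (median 1.25) on pair-fed arrays. The pair-fed mean of 1.10 ± 0.35 (SE, n = 7) rose past the threshold (limma adjusted p 0.0335) and the alcohol-fed mean of 0.52 ± 0.35 did not (0.285). The Psma6 call ended without any one of pair-fed arrays 1, 4, 5, 6 and 7, at a limma adjusted p up to 0.0966, and without arrays 6 and 7 together (0.143). Psma3, Psma5 and Psma7 averaged 0.84, 0.63 and 0.66 in the alcohol-fed group and 0.28, 0.81 and 0.07 in the pair-fed group, none of them called. Psma2 and Psma4 had values on 5 alcohol-fed and 4 pair-fed arrays each and scattered widely, Psma2 between -4.07 and 2.135 in the alcohol-fed and between -0.17 and 1.245 in the pair-fed group. Psma8, the alpha subunit of the testis, ranged from -2.86 to 1.10 (median 0.21) on alcohol-fed arrays and from -0.96 to 1.785 (median 1.13) on pair-fed arrays. It had the smallest p of the alpha class between the groups, where the difference, taken as alcohol-fed minus pair-fed on the log2 scale, was -1.13 ± 0.60 (SE, limma adjusted p 0.9996).

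Among the core beta genes a single probe of 12 was called in any comparison. It was higher in the pair-fed group (8.33%), near the 7.86% of all probes tested. Psmb4, a beta subunit without a proteolytic site, ranged from -0.53 to 1.17 (median 0.29) on alcohol-fed arrays and from -0.40 to 2.46 (median 0.94) on pair-fed arrays. Its mean was 0.34 ± 0.31 (SE, n = 7) in the alcohol-fed group and 0.97 ± 0.31 in the pair-fed group, where it rose (limma adjusted p 0.0333), with 6 of 7 arrays above 0 in each. The call ended without pair-fed array 1, 3, 4 or 5, at a limma adjusted p up to 0.113, and with the replicate number as a block. Psmb4 had the smallest p of its class between the groups, with a log2 difference of -0.63 ± 0.44.

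The constitutive beta genes lay close together, and the means of the exchangeable ones were lower. Psmb1, Psmb2, Psmb3 and Psmb4 had means of 0.34 to 0.85 in the alcohol-fed group and 0.47 to 0.97 in the pair-fed group. The catalytic subunits Psmb5, Psmb6 and Psmb7 averaged 0.57, 0.36 and 0.53 in the alcohol-fed group and 0.48, 0.50 and 0.47 in the pair-fed group. The interferon-inducible Psmb8, Psmb9 and Psmb10, with 4 probes, had a median of -0.16 in both groups. The Psmb8 probes averaged -0.37 and -0.98 in the alcohol-fed and -0.25 and -0.82 in the pair-fed group, the second from values between -5.38 and 2.60 and between -3.55 and 1.37. These 2 Psmb8 probes had values on 6 and 5 of the alcohol-fed arrays, while the other 10 core beta probes had a value on every array. Psmb9 averaged 0.18 ± 0.36 (SE) and -0.08 ± 0.36 and Psmb10 0.04 ± 0.28 and 0.15 ± 0.28 in the alcohol-fed and pair-fed groups. In the alcohol-fed group these errors overlap those of Psmb4 (0.34 ± 0.31) and Psmb6 (0.36 ± 0.30). In the pair-fed group they overlap those of Psmb5 (0.48 ± 0.37), Psmb6 (0.50 ± 0.30) and Psmb7 (0.47 ± 0.35), but not of Psmb4 (0.97 ± 0.31). Thymic Psmb11 averaged -0.56 and 0.23. None of these 5 probes passed, and the gap between the constitutive and the inducible genes is a description of these means with no test.

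Genes that act with the inducible subunits and markers of blood cells are given beside them. Over all probes tested 8.02% rose and 15.5% fell in the alcohol-fed group, and 7.86% rose and 13.5% fell in the pair-fed group. Of 13 probes of class I antigen presentation and interferon genes, 1 rose (7.69%) and 2 fell (15.4%) in the alcohol-fed group. In the pair-fed group 2 rose (15.4%) and 2 fell (15.4%). The lower shares of this list are near the background. The histocompatibility gene H2-K1 rose to 1.22 ± 0.28 (SE) in the alcohol-fed and 1.37 ± 0.31 in the pair-fed group, whereas H2-D1 fell to -2.54 ± 0.33 and -2.16 ± 0.33 and the interferon gene Ifng to -3.08 ± 0.36 and -2.94 ± 0.42. Tap1, the peptide transporter encoded next to Psmb8 and Psmb9, stood at 0.70 ± 0.34 in the alcohol-fed group, not called, and rose to 1.04 ± 0.34 in the pair-fed group. Of 12 leukocyte marker probes 0 rose and 4 fell (33.3%) in each group, with group medians of -0.36 and -0.13. Il7r, Itgam and Cd68 fell in both groups, Cd4 in the alcohol-fed and Ptprc in the pair-fed group. Of 8 erythroid marker probes 0 rose, 4 fell in the alcohol-fed (50%) and 3 in the pair-fed group (37.5%), with medians of -1.66 and -0.65. Ank1, Slc4a1 and 1 of 2 Tfrc probes fell in both groups and Bpgm in the alcohol-fed group, and the globin gene Hba-a1 stood at -0.32 and -0.06, not called. Of the markers that fell, Slc4a1 and Bpgm had values on 4 arrays per group. Cd68 had values on 5 alcohol-fed arrays, and Cd4 and Ptprc on 6 pair-fed arrays. Among all tested probes lacking a value somewhere, 26.9% fell in the alcohol-fed and 20.2% in the pair-fed group. The part of blood cells in the proteasome ratios was not tested.

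The ATPase genes were divided. Of 6 probes 1 rose and 1 fell in the alcohol-fed group (16.7% each), beside 8.02% and 15.5% of all probes tested. In the pair-fed group 1 rose (16.7%), beside 7.86%. Psmc1, Psmc3 and Psmc5 had values on every array and means above 0 in both groups. Psmc2, Psmc4 and Psmc6 lacked values and had means below 0. Of all tested probes lacking a value somewhere, 26.9% fell in the alcohol-fed and 20.2% in the pair-fed group. The part of missing values in this division was not tested. Psmc4 ranged from -5.81 to -1.15 (median -2.13) on alcohol-fed arrays and from -3.11 to 1.99 (median -1.41) on the 6 pair-fed arrays with a value. It was below 0 on 7 of 7 alcohol-fed arrays and on 5 of 6 pair-fed arrays, and the groups overlapped. Its mean fell to -2.67 ± 0.57 (SE, n = 7) in the alcohol-fed group, 6.36-fold below the pool (limma adjusted p 0.00332), and stood at -1.09 ± 0.61 (n = 6) in the pair-fed group, not called (0.210). The alcohol-fed call held in all 14 fits that left out 1 array (limma adjusted p at most 0.0126), and the log2 difference between the groups of -1.58 ± 0.83 did not pass (0.9996).

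Psmc1, which helps open the core gate, ranged from -0.16 to 1.66 (median 1.10) on alcohol-fed arrays and from -0.485 to 0.97 (median 0.145) on pair-fed arrays. It rose to 0.84 ± 0.28 (SE, n = 7) in the alcohol-fed group (limma adjusted p 0.0375) and stood at 0.17 ± 0.28 in the pair-fed group (0.697). Its call ended without alcohol-fed array 1, 3, 4, 5 or 7 (limma adjusted p up to 0.104) and with the replicate number as a block. Psmc3, another gate-opening ATPase, showed the other pattern, with -0.57 to 1.01 (median 0.16) on alcohol-fed and 0.03 to 2.06 (median 0.73) on pair-fed arrays. It stood at 0.23 ± 0.30 in the alcohol-fed group (limma adjusted p 0.593) and rose to 0.98 ± 0.30 in the pair-fed group (0.0292), a call that ended without pair-fed array 1, 4 or 7 (up to 0.0908). Neither difference between the groups passed, at 0.67 ± 0.40 for Psmc1 and -0.75 ± 0.43 for Psmc3. Psmc6 averaged -1.36 ± 0.53 in the alcohol-fed group, below 0 on all 6 arrays with a value but not past the threshold (limma adjusted p 0.0736), and -0.03 ± 0.53 in the pair-fed group. Psmc2 and Psmc5 averaged -0.0079 and 0.44 in the alcohol-fed group and -0.14 and 0.13 in the pair-fed group.

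The other base subunits and the lid were mostly above 0. Psmd1, Psmd2 and Psmd4 averaged 0.85, 0.28 and 0.52 in the alcohol-fed group and 0.78, 0.24 and 0.38 in the pair-fed group, none called. The ubiquitin receptor Psmd4 ranged from 0.02 to 0.78 (median 0.48) on alcohol-fed arrays, all above 0, and from -1.20 to 1.41 (median 0.385) on pair-fed arrays. Of 8 lid probes 1 rose in each group (12.5%), beside 8.02% of all probes tested in the alcohol-fed and 7.86% in the pair-fed group. Psmd11, a lid scaffold subunit, ranged from -0.17 to 1.90 (median 1.31) on alcohol-fed and from -0.31 to 1.91 (median 0.63) on pair-fed arrays. It rose to 1.13 ± 0.31 (SE, n = 7) in the alcohol-fed group (limma adjusted p 0.0148) and stood at 0.82 ± 0.31 in the pair-fed group (0.0662), with 6 of 7 arrays above 0 in each. The alcohol-fed call of Psmd11 held in all 14 fits without 1 array (at most 0.0428).

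Psmd14, the lid deubiquitinase that removes ubiquitin chains as substrates enter, ranged from -0.09 to 1.19 (median 0.82) on alcohol-fed arrays and from -0.15 to 1.94 (median 0.83) on pair-fed arrays. Its mean was 0.61 ± 0.29 (SE, n = 7) in the alcohol-fed group (limma adjusted p 0.130) and rose to 0.86 ± 0.29 in the pair-fed group (0.0408), a call that ended without alcohol-fed array 3 or pair-fed array 1, 4, 5 or 7 (up to 0.126). Psmd7 had the smallest p of the lid between the groups. It ranged from -0.73 to 1.53 (median 0.03) on alcohol-fed and from -0.41 to 2.63 (median 1.045) on pair-fed arrays, a log2 difference of -0.70 ± 0.49. Psmd6 was the lid probe below 0 in both groups, at -0.46 and -0.42, and the other lid members had means of 0.38 to 0.60 in the alcohol-fed group and -0.26 to 0.69 in the pair-fed group.

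**Figure D2:**
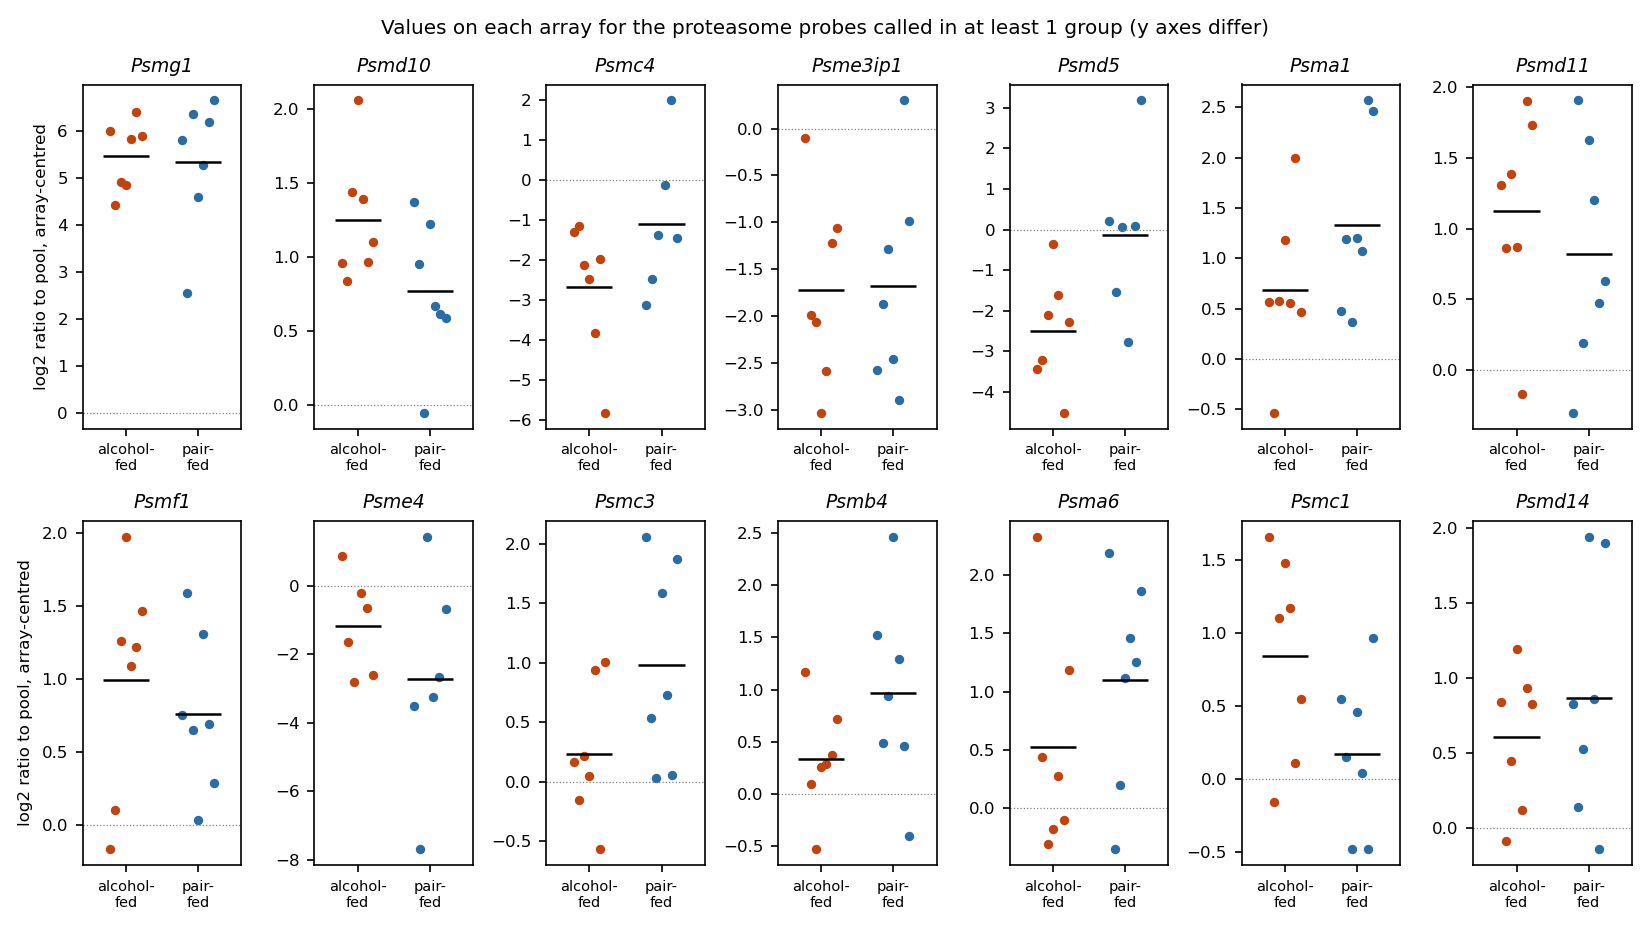
Array-centred log2 ratio on each array, alcohol-fed left and pair-fed right, with the group mean as a bar, for the 14 proteasome probes called in at least 1 group. In every panel the groups overlap.

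The activators had no shared direction. None of their 4 probes passed in the alcohol-fed group, beside 23.5% of all probes tested. In the pair-fed group 1 fell (25%), beside 13.5%. Psme1, a subunit of the interferon-inducible cap, averaged 0.65 ± 0.34 in the alcohol-fed and 0.54 ± 0.34 in the pair-fed group (SE, n = 7 each), and Psme2b 0.48 ± 0.41 and 0.92 ± 0.41. Psme3, which encodes a nuclear cap, averaged -0.32 ± 0.38 and -0.26 ± 0.38. Psme4, a large single-chain cap with a known role in male germ cells, ranged from -2.80 to 0.88 (median -1.14) on 6 alcohol-fed arrays and from -7.70 to 1.44 (median -2.94) on 6 pair-fed arrays. Its mean was -1.17 ± 0.81 in the alcohol-fed group (limma adjusted p 0.303) and fell to -2.72 ± 0.81 in the pair-fed group (0.0266), with 5 of 6 arrays below 0 in each. The pair-fed Psme4 call ended without pair-fed array 1, 2 or 5 (up to 0.0811) and with the replicate number as a block.

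Psme3ip1 was lower in both groups. It ranged from -3.03 to -0.10 (median -1.99) on alcohol-fed arrays and from -2.89 to 0.30 (median -1.87) on pair-fed arrays. The mean fell to -1.72 ± 0.39 (SE, n = 7) in the alcohol-fed and -1.68 ± 0.39 in the pair-fed group (limma adjusted p 0.00449 and 0.00560), below 0 on 7 of 7 and 6 of 7 arrays. The inhibitor gene Psmf1 ranged from -0.17 to 1.97 (median 1.22) on alcohol-fed and from 0.03 to 1.58 (median 0.69) on pair-fed arrays. It rose to 0.99 ± 0.29 in the alcohol-fed group (limma adjusted p 0.0206) and stood at 0.76 ± 0.29 in the pair-fed group (0.0692). The alcohol-fed Psmf1 call ended without alcohol-fed array 3, 4 or 7 (up to 0.0697) and with the replicate number as a block.

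The core assembly chaperones held the highest member ratio in both groups. Psmg1, which with Psmg2 guides the alpha ring together, ranged from 4.41 to 6.39 (median 5.82) on alcohol-fed arrays and from 2.54 to 6.65 (median 5.80) on pair-fed arrays. Its mean was 5.47 ± 0.41 (SE, n = 7) in the alcohol-fed and 5.34 ± 0.41 in the pair-fed group, 44.2-fold and 40.5-fold above the pool (limma adjusted p 2.04e-08 and 2.75e-08). These were ranks 32 and 33 from the top among all 20876 probes. All 14 arrays were far above 0, the groups overlapped, and their log2 difference was 0.12 ± 0.57. The ratio of Psmg1 rests on 1 probe. Its partner Psmg2 ranged from -1.31 to 1.49 (median 0.17) on alcohol-fed and from -0.78 to 1.30 (median -0.06) on pair-fed arrays, and averaged -0.0039 ± 0.35 and 0.20 ± 0.35. Psmg3 and Psmg4, the other core assembly chaperones measured, averaged 0.50 and 0.79 in the alcohol-fed and 0.57 and 0.88 in the pair-fed group, not called.

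Of the base chaperones, Psmd10 (gankyrin), which binds the ATPase Psmc4, ranged from 0.84 to 2.06 (median 1.10) on alcohol-fed and from -0.05 to 1.37 (median 0.67) on pair-fed arrays. It rose to 1.25 ± 0.25 (SE, n = 7) in the alcohol-fed group, 2.38-fold above the pool (limma adjusted p 0.00174), and to 0.77 ± 0.25 in the pair-fed group (0.0350). All 7 alcohol-fed and 6 of 7 pair-fed arrays were above 0. The alcohol-fed Psmd10 call held in all 14 fits without 1 array, and the pair-fed call ended without pair-fed array 1, 2, 4, 5 or 7 (up to 0.0956), without centring of the arrays and with the replicate number as a block. Psmd9 averaged 0.42 ± 0.26 in the alcohol-fed and 0.53 ± 0.26 in the pair-fed group, not called.

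Psmd5, the chaperone of the Psmc1 and Psmc2 module, had the smallest p of all members between the groups. It ranged from -4.51 to -0.365 (median -2.26) on alcohol-fed arrays and from -2.77 to 3.18 (median 0.08) on the 6 pair-fed arrays with a value. Its mean fell to -2.50 ± 0.56 (SE, n = 7) in the alcohol-fed group, 5.66-fold below the pool (limma adjusted p 0.00452), and stood at -0.13 ± 0.60 (n = 6) in the pair-fed group (0.900). All 7 alcohol-fed arrays were below 0, whereas 4 of 6 pair-fed arrays were above it, with the pair-fed arrays 2 and 4 inside the alcohol-fed range. The log2 difference of -2.37 ± 0.82 had a 95% interval of -4.10 to -0.65 and an unadjusted limma p of 0.00988, and it did not pass over the whole table (adjusted p 0.9996).

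The direct comparison of ethanol with the matched sugar diet, in which the pool cancels, called no member. Limma called 0 of 50 member probes and 0% of all 20876 probes. At an unadjusted p under 0.05 there was 1 member probe, Psmd5, beside 4.22% of all probes. The median log2 difference over members was -0.05, against 0.01 over all probes tested, and 22 of 50 members were above 0. By class the median difference was -0.61 for core alpha, -0.05 for core beta, -0.31 for ATPases, 0.07 for the other base subunits, 0.04 for the lid, 0.02 for activators and -0.08 for core assembly chaperones. In the alpha class 6 of 8 differences were negative, the lowest those of Psma2 and Psma4 with their missing values. The 95% interval of a member had a half-width of 0.73 to 2.44 (median 1.03). It lay within 2-fold for 3 of 50 members and within 4-fold for 41. These intervals are not adjusted over the table, so they do not show which differences could be called. Simulated data had the spreads and missing values of these arrays, independent normal noise and differences in only a small part of the 20876 probes. The shares recovered hold for that setting. There limma called 0% of 2-fold differences between the groups. It called 33.5% of 4-fold and 83.5% of 8-fold ones. The absence of calls therefore says little about differences of 2-fold with this number of arrays.

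**Figure D3:**
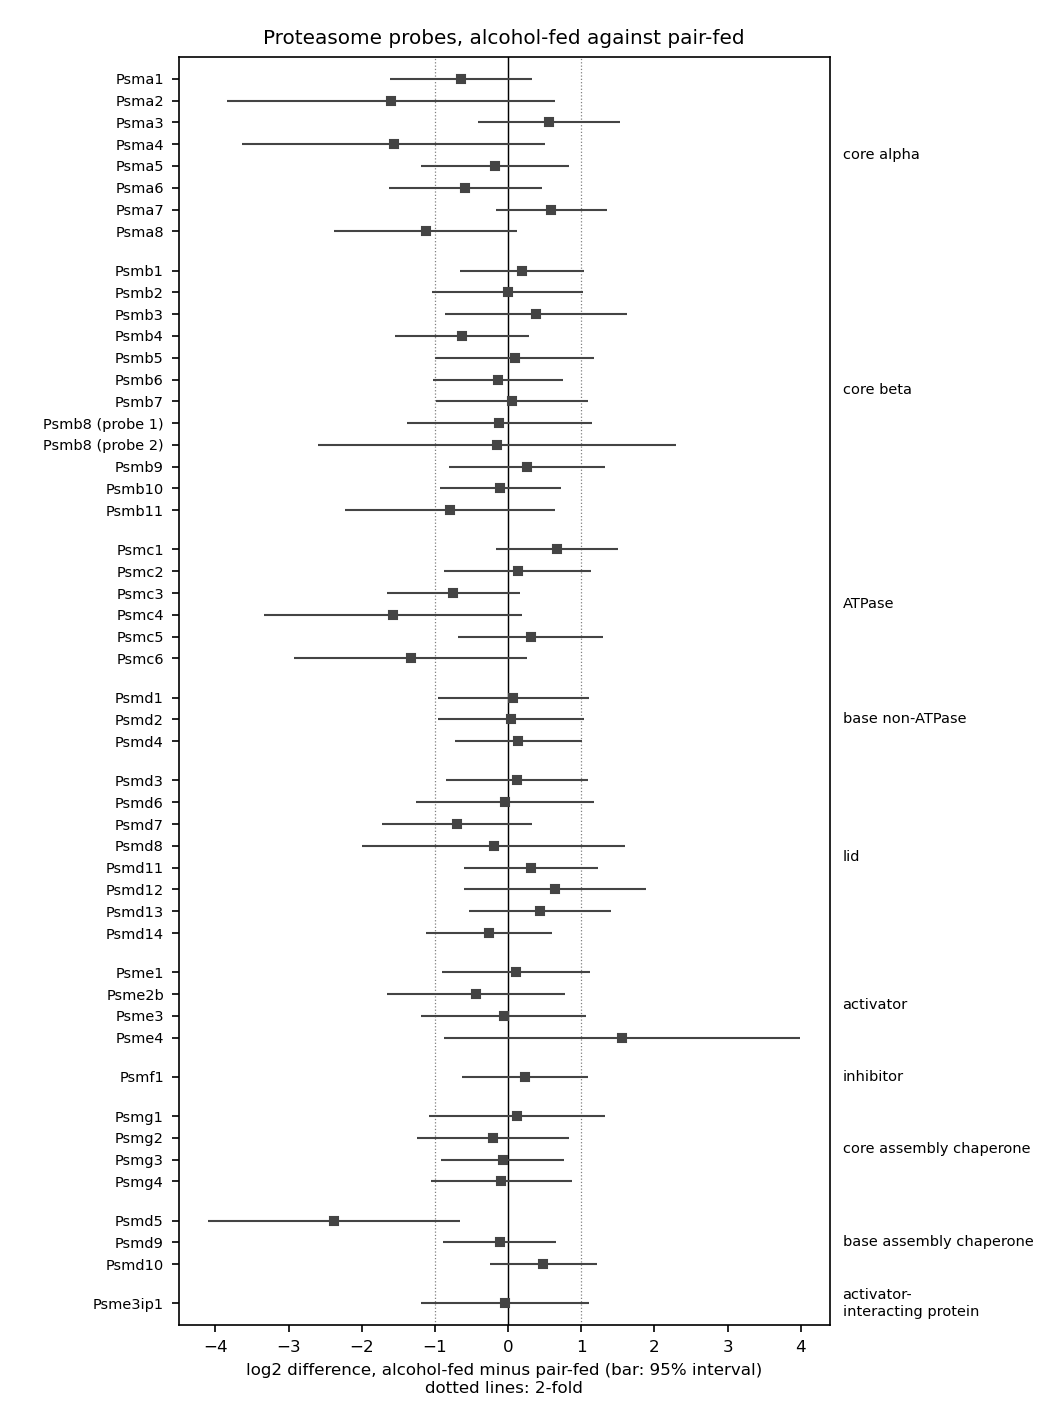
Log2 difference between the alcohol-fed and pair-fed groups for each proteasome probe with its 95% interval, by class, with dotted lines at 2-fold. Only the interval of Psmd5 leaves out 0, and 9 of the 50 intervals reach beyond 4-fold.

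Genes that deliver substrates to the proteasome or regulate it were taken from a separate list. Of 32 listed genes 17 had probes in the table, 19 in all, of which 17 could be tested. In the alcohol-fed group 1 rose (5.88%) and 3 fell (17.6%), with a median of 0.42. The pair-fed group had 1 higher (5.88%) and 2 lower (11.8%), with a median of 0.22. Over all probes tested the higher and lower shares were 8.02% and 15.5% in the alcohol-fed and 7.86% and 13.5% in the pair-fed group. The shares of the list are near these, and the genes named below are given as single values. The ubiquilin Ubqln2, a shuttle for ubiquitinated proteins, rose to 0.97 ± 0.33 (SE) in the alcohol-fed group and stood at 0.93 ± 0.33 in the pair-fed group, not called. Ufd1, a substrate adaptor of the unfoldase Vcp, fell to -1.33 ± 0.26 and -0.79 ± 0.26, and Txnl1, a thioredoxin that binds the regulatory particle, fell to -1.69 ± 0.47 and -1.71 ± 0.47. Ubqln4 fell to -1.54 ± 0.49 in the alcohol-fed group and stood at -1.10 ± 0.49 in the pair-fed group. Usp14, the deubiquitinase docked on the base, stood at 0.85 ± 0.34 in the alcohol-fed group, not called, and rose to 1.15 ± 0.34 in the pair-fed group. The transcription factor Nfe2l1, which drives proteasome genes when proteasomes are inhibited, averaged 0.45 and -0.02, and the core maturation factor Pomp 0.65 and 0.90, none called. None of the 17 passed between the groups.

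Some core genes moved together from array to array within each group. The mean pairwise Pearson correlation of deviations from the group mean, over 14 arrays, was 0.09 among the 40 members with a value on every array, 0.26 among the 25 constitutive subunits of core and regulatory particle and 0.22 among all 10 core beta probes. Among the 7 constitutive beta probes the mean pairwise correlation was 0.52 (Spearman 0.56). It was 0.51 without alcohol-fed array 1 and pair-fed array 7, whose medians over the constitutive subunits were farthest out. These 2 arrays were not picked on the beta genes. Alcohol-fed array 6, on which Psmb3, Psmb5 and Psmb7 were also high, stayed in. The value of 0.51 thus does not show how far the correlation rests on single arrays. Across all 14666 complete probes the mean pairwise correlation was 0.003. Centring each array on its own median holds this value near 0, so it is a weak reference for a small set. Single pairs ran from -0.82 to 0.91 among the 40 members and from -0.21 to 0.91 among the constitutive beta probes. The mean was 0.26 among 6 alpha probes, 0.55 among 3 ATPase probes, -0.01 among 7 lid probes and 0.01 among 3 activator probes. Without alcohol-fed array 1 and pair-fed array 7 it was 0.15 for alpha, 0.16 for all core beta and 0.46 for ATPase probes. These correlations are descriptions: all arrays share 1 pool, and the dye and labelling of an array act on all its probes.

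The leading example, chosen after the values were seen, was Psma3 with Psmb3, Psmb5 and Psmb7, whose pairwise correlations were 0.85 to 0.91. On alcohol-fed array 1 they stood at 1.98, 3.26, 1.77 and 1.59, and on alcohol-fed array 6 at 2.63, 2.40, 2.61 and 1.98. On the other 5 alcohol-fed arrays the same genes lay between -0.74 and 0.76. Pair-fed array 5 was the highest of its group for Psma3, Psmb3, Psmb5 and Psmb7, at 1.17, 2.09, 1.43 and 1.72, and pair-fed array 6 was low at -0.30, -0.11, -0.74 and -0.525. Arrays 1 and 6 thus stood apart from the rest of the alcohol-fed group in these genes. None of these genes was called against the pool in either group. Before centring, arrays 1 and 6 had the lowest medians of the alcohol-fed group (-0.377 and -0.3205). They also had its most placeholders (4.54% and 7.91%). Pair-fed array 5 had a median of 0.3885 and 4.65% placeholders. The part of such array differences in the joint rise was not tested.

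**Figure D4:**
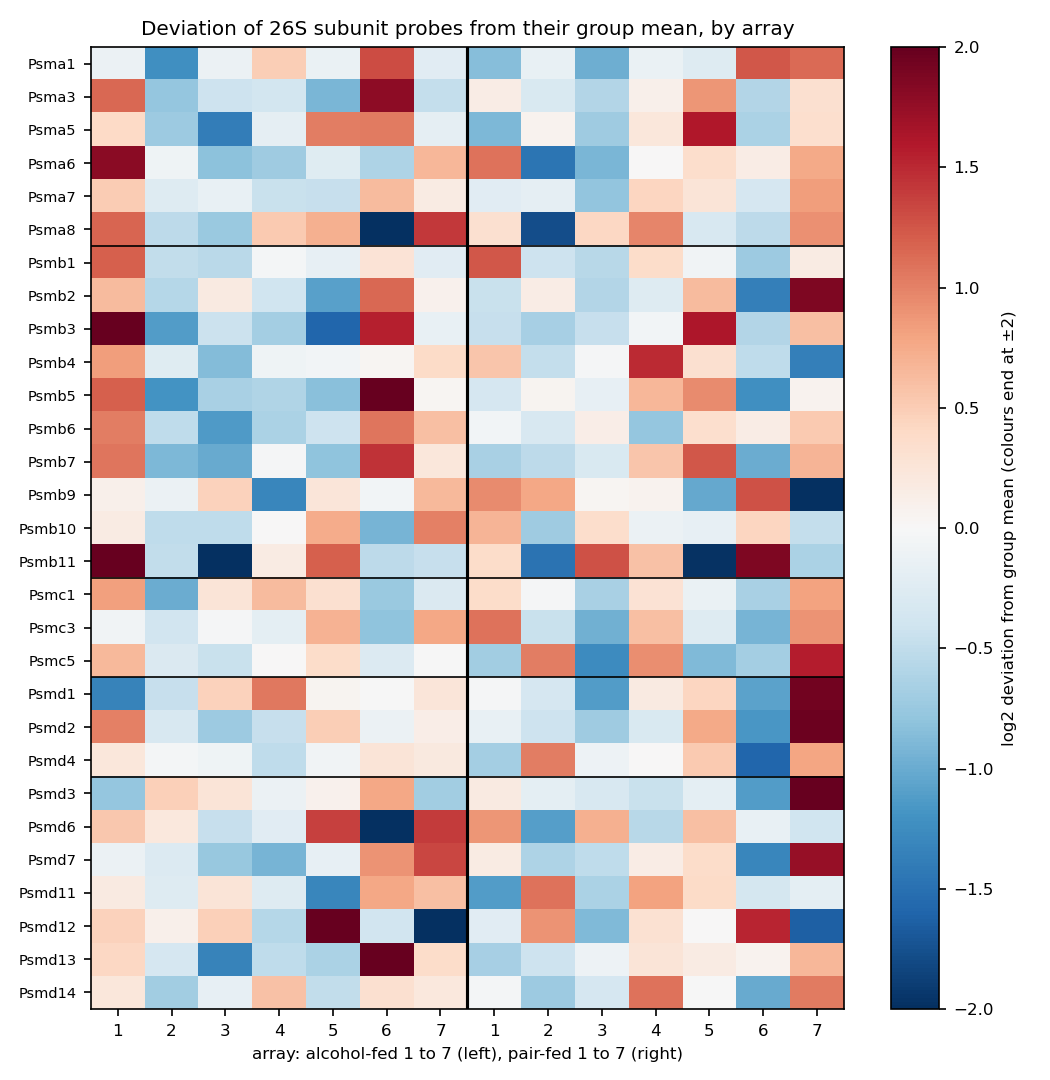
Deviation of each 26S subunit probe (rows, core alpha, core beta, ATPase, other base and lid from the top) from its group mean on each array (columns), as log2 values, red above and blue below. Psma3, Psmb3, Psmb5 and Psmb7 are high together on arrays 1 and 6 of the alcohol-fed group and array 5 of the pair-fed group.

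The promoters of these co-varying genes are shown because their levels moved together. Windows of 250 bases before to 50 after the transcription start come from RefSeq (GRCm38.p6), which held at least 1 for 41 of the 49 genes, Psmb7 not among them. They were searched on both strands for the antioxidant response element core TGACNNNGC, the kind of site bound by Nfe2l1 and Nfe2l2, and for the box CCAAT. Matches of the motifs may share letters. The antioxidant core was found in 6 of 41 proteasome genes (14.6%), against 14.0% of all 27025 genes in the table, and CCAAT in 15 (36.6%) against 41.1%. Capitals mark the matches: CCAAT or its reverse complement in Psma3 and Psmb3, and the antioxidant core in Psmb5. Psma3 lies at chr12:70974373-70974672 on the plus strand, Psmb3 at chr11:97703184-97703483 on the plus strand and Psmb5 at chr14:54617946-54618245 on the minus strand.
Psma3: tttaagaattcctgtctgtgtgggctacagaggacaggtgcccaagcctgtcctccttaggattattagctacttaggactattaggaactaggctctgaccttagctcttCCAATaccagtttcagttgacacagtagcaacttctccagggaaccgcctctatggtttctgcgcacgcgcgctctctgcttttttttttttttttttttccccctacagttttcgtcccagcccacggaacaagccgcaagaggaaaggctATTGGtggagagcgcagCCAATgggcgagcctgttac
Psmb3: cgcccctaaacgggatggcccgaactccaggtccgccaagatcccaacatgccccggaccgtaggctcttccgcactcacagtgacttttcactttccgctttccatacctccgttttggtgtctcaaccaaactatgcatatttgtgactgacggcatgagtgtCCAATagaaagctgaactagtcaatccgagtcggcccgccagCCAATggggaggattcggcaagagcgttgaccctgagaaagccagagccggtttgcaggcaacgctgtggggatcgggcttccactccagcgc
Psmb5: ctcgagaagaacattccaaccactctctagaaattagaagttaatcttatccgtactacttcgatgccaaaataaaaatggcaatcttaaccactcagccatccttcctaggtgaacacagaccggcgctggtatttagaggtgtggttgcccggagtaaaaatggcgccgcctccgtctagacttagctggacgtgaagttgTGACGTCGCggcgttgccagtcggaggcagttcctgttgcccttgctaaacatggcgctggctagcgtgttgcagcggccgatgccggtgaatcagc
Neither motif was in all 3 promoters: Psma3 holds 3 CCAAT matches, Psmb3 holds 2, and Psmb5 holds 1 antioxidant core match and no CCAAT. A match here is a description of letters, not a bound site, and the shares over all proteasome genes were near those of all genes.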

How the data were processed

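The deposited table holds 1 value per probe and array. Its values are log2 ratios by the authors, of unstated centring. The scale was read from the limits, since the highest value, 16.61, is log2 of 100000 and the lowest, -9.966, is log2 of 0.001. The labels do not say how images, background and dyes were handled. Arrays correlated with each other at r of 0.257 to 0.692. Probes were named from the platform annotation, which gave 1 symbol for 16635 probes, several for 113 and none for 4834.

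Placeholders were set to missing, each array was centred on its median, and limma 3.58.1 (R 4.3.3) was fitted to both groups with moderated variances. Each group mean was tested against 0 (the pool) and the groups against each other, with Benjamini-Hochberg adjustment over 20876 probes. The fit was tested on simulated data. Precision is limited by the number of arrays. The members and gene lists were chosen with earlier results of these data known. Per-array ranges were given for the 14 called member probes and for the probe with the smallest p between the groups in each class, and up to 4 genes of each other list were named by smallest p against the pool, beside genes named for their role. Alternatives were other normalizations, array weights, robust variances, other handling of missing values, the replicate number as a block, and each array left out.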

Additional observations from a re-analysis of the deposited data

Results flagged for a closer look

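Over the 50 probes and both groups, 2 single values stood far from the other 6 arrays of their group by Dixon's test, where chance alone marks about 1 group in 20. The lid gene Psmd3 stood at 2.464 on pair-fed array 7, against -0.745 to 0.559 on the other pair-fed arrays, a gap of 0.594 of the group's range. The inducible core gene Psmb9 stood at -1.117 on alcohol-fed array 4, against 0.064 to 0.831 on the other alcohol-fed arrays, a gap of 0.606 of the range. Neither gene was called in any comparison.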

How the results depend on the processing

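The comparison of the alcohol-fed with the pair-fed group called 0 member probes in all 23 other settings. The median member ratio stayed above 0 in all of them. With quantile normalization 9 probes were called higher in the alcohol-fed and 11 in the pair-fed group. Among probes with values on all arrays, 1 was called lower in the alcohol-fed and 1 in the pair-fed group, where Psmc4, Psmd5 and Psme4 could not be kept for their missing values. Without the 2 arrays with most placeholders (pair-fed 6 and 7, chosen after seeing the data), 2 were called higher in the pair-fed group. Leaving out 1 array at a time gave 3 to 6 probes called higher and 3 to 4 lower in the alcohol-fed group, and 3 to 7 higher and 1 to 2 lower in the pair-fed group. The pair-fed lower count was 1 without pair-fed array 1, 2 or 5. Apart from the alternatives' smaller sets of probes or arrays, the cause was not tested. No called value changed sign in the settings run. Named values that were not called did: the ratio of Psmd5 in the pair-fed group (-0.79 to 0.40 with 1 array left out), those of Psma8 (-0.55 to 0.11), Psmd7 (-0.03 to 0.35) and Psmg2 (-0.25 to 0.21) in the alcohol-fed group, and the differences between the groups of Psmd4, Psme3ip1, Psmg1 and Psmg2.

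With the replicate number as a block, 3 probes were called higher in the alcohol-fed group and 1 lower in the pair-fed group. The labels do not state that the numbers pair samples. Same-numbered arrays correlated at -0.096 to 0.23 in their deviations (median 0.045), against a median of -0.024 for arrays of other numbers. Of 7 alcohol-fed arrays 2 correlated best with their own number. With so few arrays these values cannot decide whether the numbers mark pairs. Without centring, the median over all probes was 0.14 in the alcohol-fed and 0.09 in the pair-fed group, and directions are relative to that shift.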
